A study of Mus musculus with 9 samples.

Results

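Potassium channels set the resting potential of neurons, end each action potential and limit how often a neuron fires. Voltage-gated channels are built from pore subunits of the Kcna, Kcnb, Kcnc, Kcnd, Kcnh or Kcnq subfamilies, other pores open to calcium or sodium, rectify inwards or leak at rest, and small auxiliary proteins tune the pores they join. FMRP, whose absence causes fragile X syndrome, binds RNA and sits on brain polyribosomes, and the neuronal Hu proteins are RNA-binding proteins known for binding U-rich stretches, mostly in 3' untranslated regions.

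The Kcn mRNAs are all genes of the deposited gene table whose symbol begins with Kcn. They are 94 genes, on 110 lines of the table, of 29496 genes in all. The data are from HITS-CLIP, in which ultraviolet light ties a protein to the RNA it touches, the protein is immunoprecipitated and the short bound RNA pieces are sequenced as tags. Brain polyribosomes came from pooled FVB littermates, with cortex and cerebellum freed of white matter. A library therefore reports a mixture of cells and regions, in which fewer cells of a type and less RNA per cell cannot be told apart.

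The 7 FMRP libraries form 3 groups. In Protocol 1, with 1% SDS and 454 sequencing, mixed monoclonal antibodies 7G1-1 and 2F5 gave 3 libraries, from postnatal days 14, 15 and 25, and the polyclonal antibody ab17722 gave 2, from days 14 and 25. Protocol 2, with 2% SDS and Illumina sequencing, gave 2 ab17722 libraries, from days 11 and 13. The same 2 lysates were split and immunoprecipitated with a human anti-Hu serum, which gave the 2 Hu libraries. The protocol text names male wild-type and Fmr1Tm1Cgr littermates for Protocol 1, the sample labels give no genotype, and libraries from Fmr1-null mice are not analysed here. No label says that libraries of a group came from separate pools, and p-values then describe only how these libraries vary, which may be technical. Protocol, platform and age differ together between the 454 and Illumina libraries and cannot be told apart.

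Depth limits every value. The 454 libraries hold 4485 to 8360 tags in the gene table and the Illumina FMRP libraries 25496 and 43562, while the Hu libraries hold 25873 and 49847 tags in the lists of tags on transcripts. Levels are given in CPM, tags scaled to a library of 1000000. A count of 0 in the shallowest library allows up to 669 CPM. All 7 neuron markers fixed for the check had tags, at a summed 3658 to 6933 CPM in FMRP and 7498 to 13321 CPM in Hu libraries. All 5 oligodendrocyte markers also had tags, at 149 to 2314 CPM in FMRP and 5063 to 11616 CPM in Hu libraries, and the astrocyte markers, of which Gja1 was at 0, reached 178 to 1605 and 77.3 to 120 CPM. The 4 cerebellum markers were at 612 to 4855 CPM in FMRP and 271 to 1063 CPM in Hu libraries. The part of this cell mixture in the results was not tested.

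FMRP tags fell on 58 of the 94 Kcn mRNAs, 733 tags of 102123. Only 7 members had a tag in all 7 libraries, 20 had 10 or more tags in sum, 38 had 1 to 9 and 36 had none. The 10 members with the most tags held 54.8% of all Kcn tags. Pore subunits of voltage-gated channels took 66.4% of the tags with 30 members, of which 25 had a tag. The 8 calcium- or sodium-activated pore genes took 14.2%, the 15 inward rectifiers 6.96%, the 14 two-pore-domain leak channels 3.55%, the 10 silent subunits 3.68% and the 17 auxiliary genes 5.18%.

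Kcn mRNAs made up 0.814% ± 0.216 (SD, n = 7) of FMRP tags in the gene table. By library the share was 0.713%, 0.920% and 0.981% for the monoclonal libraries of days 14, 15 and 25, and 1.09% and 0.835% for the polyclonal 454 libraries of days 14 and 25. It was 0.431% and 0.725% in the Illumina libraries of days 11 and 13. The day 11 Illumina library was thus the lowest, and its 95% Wilson interval, 0.358% to 0.520%, covers counting error only. Both polyclonal 454 libraries lay above both Illumina ones, the most extreme order of 2 against 2, which gives p = 0.333 in a two-sided exact permutation test, the smallest that design allows. The monoclonal and polyclonal 454 libraries overlapped (two-sided exact permutation p = 0.600), as did days 25 and 14 to 15 (p = 1.00 by the same exact test). Across the 7 such tests of Kcn shares, no Benjamini-Hochberg adjusted p was below 0.778 (exact permutation tests).

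In the lists of tags on transcripts, the share was 0.414% in FMRP and 0.294% in Hu on day 11, and 0.712% in FMRP and 0.497% in Hu on day 13. FMRP was above Hu within each lysate, but the day 11 FMRP library was below the day 13 Hu library, so the groups overlapped (two-sided exact permutation p = 0.667, n = 2 and 2).

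**Figure D1:**
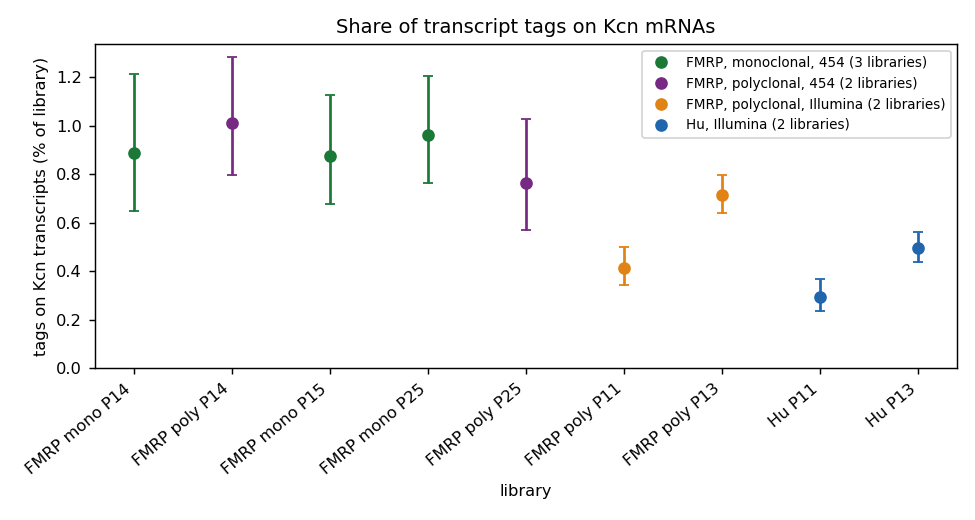
Share of each library's transcript tags that fell on Kcn mRNAs, in percent, with 95% Wilson intervals, for the 7 FMRP and 2 Hu libraries. The 454 FMRP libraries lie above the day 11 Illumina FMRP library at 0.414%, and each Hu library lies below the FMRP library of its own lysate.

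Among calcium- and sodium-activated pores, Kcnma1, which encodes the large-conductance calcium-activated channel, held the most FMRP tags of any member, 71 in all. Its counts were 1, 3 and 9 in the monoclonal libraries of days 14, 15 and 25, 2 and 4 in the polyclonal 454 libraries of days 14 and 25, and 14 and 38 in the Illumina libraries of days 11 and 13. Scaled to library size this was 585 ± 313 CPM (SD, n = 7), from 223 to 1077. The gene lies at chr14:24117983-24823427 (mm9). Kcnt1, the sodium-activated channel, had 24 tags and the smallest SD among the 20 members with the highest means, 293 ± 104 CPM (SD, n = 7), with 2 or 3 tags in each 454 library. Its paralog Kcnt2 had 3 tags and the calcium-activated small-conductance channel Kcnn2 had 4.

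Kcnd2, the pore of the dendritic A-type current, had 49 tags, 621 ± 327 CPM (SD, n = 7), with 5, 3 and 6 tags in the monoclonal, 7 and 2 in the polyclonal 454 and 10 and 16 in the Illumina libraries. Of these tags 9 stood on a second line of the table with no transcript, chr6:21164585-21166058, which ends just before the annotated gene at chr6:21166109-21679805 (mm9). Kcnd3, another A-type pore, had 13 tags and Kcnd1 had 3.

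The Kcnh subfamily, the ether-a-go-go related channels, held 147 tags, more than any other subfamily and 20.1% of the Kcn total. Tags fell on 6 of its 8 members. Kcnh3 had 42 tags, 0, 5 and 7 in the monoclonal, 3 and 3 in the polyclonal 454 and 11 and 13 in the Illumina libraries, and Kcnh1 had 39, with 6, 3 and 3, then 9 and 2, then 3 and 13 in the same order. Kcnh1 was highest in both day 14 libraries, at 1338 and 1293 CPM, and did not exceed 406 in the others. Kcnh7 had 31 tags, 21 of them in the day 13 Illumina library, Kcnh5 had 23 and Kcnh2 had 11.

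Kcnq3, a pore of the muscarine-sensitive M current that restrains repetitive firing, had 2, 1 and 1 tags in the monoclonal, 2 and 1 in the polyclonal 454 and 8 and 16 in the Illumina libraries, 263 ± 124 CPM (SD, n = 7). Kcnq5, another M-current pore, had 19 tags and Kcnq1, known mainly from heart and inner ear, had none.

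Of the Kcna subfamily, low-threshold channels of axons, Kcna1 had 28 tags and Kcna2 23. Kcna1 had 0, 2 and 2 tags in the monoclonal, 0 and 4 in the polyclonal 454 and 3 and 17 in the Illumina libraries, so both day 14 libraries were at 0. Kcna4, an A-type channel, had 4 tags. Of the Kcnc subfamily, the fast channels of high-frequency firing, Kcnc1 had 20 tags and Kcnc2 9. Kcnc1 ranged from 0 to 957 CPM in the 454 libraries, and was at 78.4 and 22.96 CPM in the Illumina ones.

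Outside these subfamilies few members reached 10 tags. Among inward rectifiers, Kcnj10, the channel of astrocytes, had 17 tags, but none in the FMRP transcript lists, and Kcnj2, a classical strong rectifier, had 2. The leak channels Kcnk2 and Kcnk3 had 8 and 5, with 4 of the Kcnk3 tags in the monoclonal day 15 library. Of the silent subunits, which alter other pores and conduct nothing alone, Kcng1 had 10 tags, Kcnf1 4, Kcnv1 3 and Kcns2 2. Of the auxiliary genes, Kcnab2 had 17 tags, none in a monoclonal library, Kcnip3, a calcium-binding partner of A-type pores, had 5 and Kcnmb4, a partner of Kcnma1, had 5. The 5 Kcne genes had none.

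**Figure D2:**
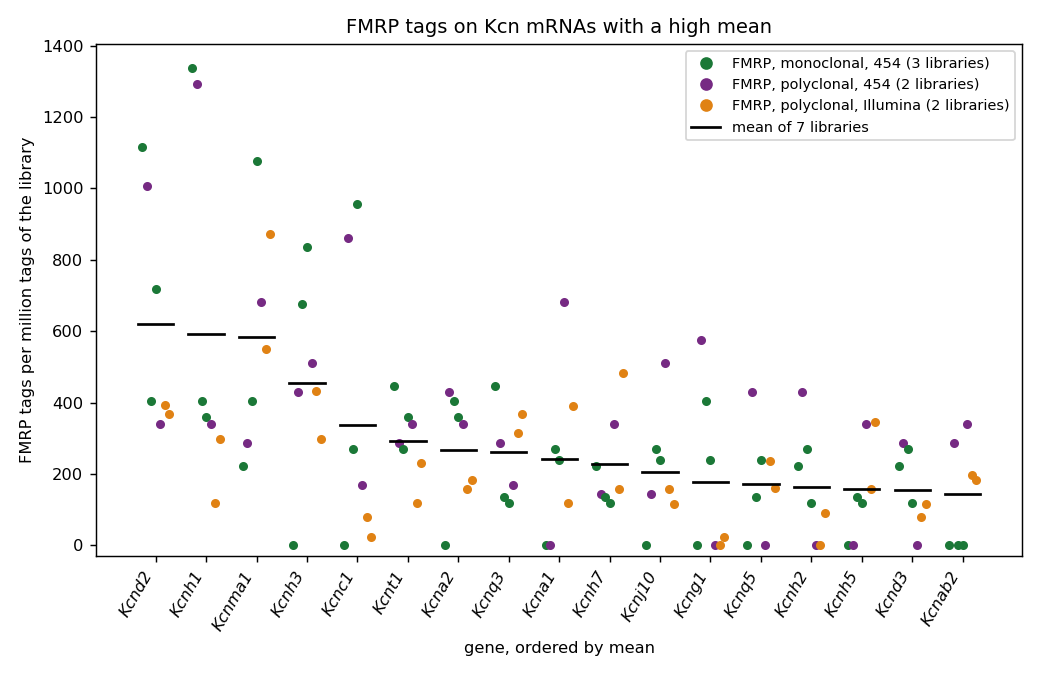
FMRP tags in CPM for 17 Kcn mRNAs of the 20 with the highest mean, one point per library coloured by antibody and platform, with the mean of the 7 libraries as a line. Kcnd2 has a mean of 621, Kcnh1 is highest in both day 14 libraries and Kcnt1 has the smallest SD, 104.

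No member was called between groups of FMRP libraries in edgeR's quasi-likelihood test, and few could be tested. Between Illumina and polyclonal 454 libraries only 2 members had enough tags to be tested, against 8.38% of 334 genes called in either direction. Kcnma1 had a log2 difference, Illumina minus 454, of 0.80 (SE 0.728, edgeR adjusted p = 0.537). Neither was called, 1 of the 2 had an unadjusted p under 0.05 in edgeR, and DESeq2 called 0. No member had enough tags to be tested between antibodies or between ages.

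Per kilobase of transcript the order of levels differed. All tags of a symbol were divided by the length of its listed transcript. This included tags on lines outside that transcript, 9 for Kcnd2 and 2 for Kcnq3, which raise their values. Kcnd2 had 137 CPM per kilobase, above Kcnq3 at 100.2, Kcnh3 at 84.4 and Kcnh1 at 83.1. Kcnma1, first by tags, had 77.0, and Kcna1, on a transcript of 8970 nucleotides, had 27.1. The Kcnq3 transcript is listed with a length equal to its coding length, as are 6 other members, so its value is per kilobase of coding sequence. Coding tags per kilobase of coding sequence, scaled to each library's coding tags, change the order again. The values were 293 for Kcnd2, 215 for Kcnh1, 176 for Kcnh3, 173 for Kcnma1, 105 for Kcnq3 and 101 for Kcna1. Of 20 members 13 moved by 1 SD or more, but the scaling and the shorter length raise most values by arithmetic.

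Members with longer coding sequence held more FMRP tags. A tag fell on 4 of 14 members with under 1000 coding nucleotides, 34 of 53 with 1000 to 1999, 12 of 15 with 2000 to 2999 and 8 of 9 with 3000 or more, and the median count over each class was 0, 3, 9 and 24 tags. Over all genes the medians of the same classes were 0, 0, 2 and 8 tags. Spearman's rho of FMRP tags with coding length was 0.49 across 91 members and 0.43 across 19059 genes. Across the 30 voltage-gated pores alone it was 0.32, and with CPM per kilobase in place of tags it was 0.44 across the 91 members. Genes are not independent replicates and share their libraries, so these are descriptions. With transcript length, rho was 0.48 for FMRP tags and 0.50 for Hu tags, and with coding length it was 0.19 for Hu tags. The FMRP tags are from the gene table and the Hu tags from the lists of tags on transcripts. Members with no entry in those lists were set to 0 Hu tags, so the FMRP and Hu values are not like for like.

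The deposited array intensity, a measure of mRNA level given by the authors, had a rho of 0.67 with FMRP tags across 89 members and 0.59 across 17727 genes. The median intensity was 128 for members with no tag, and none of these exceeded 424. Members of high intensity did not all have many tags. Kcnk1, a leak channel, had an intensity of 2839 and 3 tags, and Kcnab2 had 3072 and 17. Kcnh7, Kcnt1 and Kcnd2 had intensities of 247, 259 and 331 and 31, 24 and 49 tags.

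**Figure D3:**
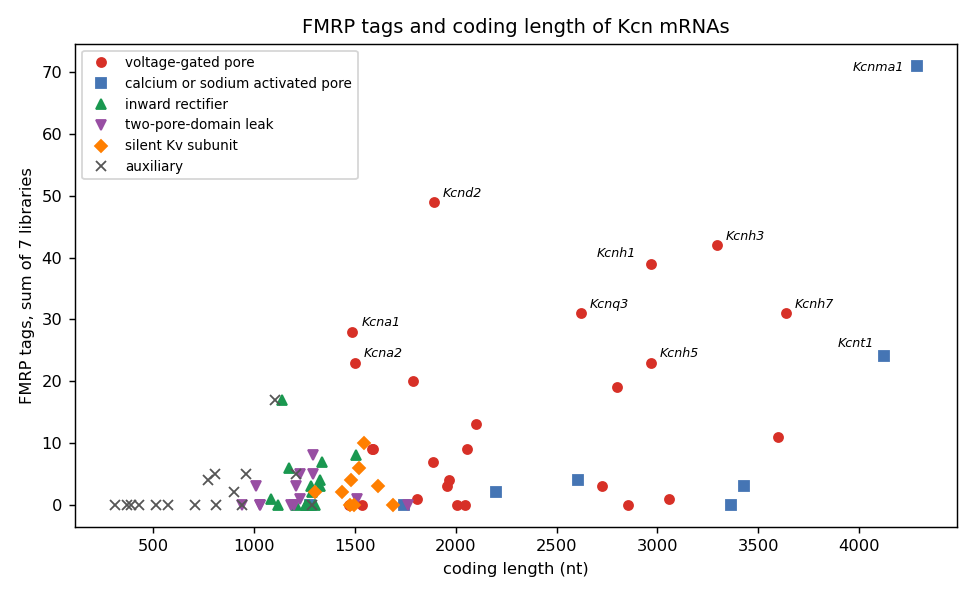
FMRP tags summed over the 7 libraries against coding length in nucleotides for 87 Kcn genes of the 91 with a listed coding length, one point per gene with the marker giving the channel class. Kcnma1 has the most tags, 71, and the auxiliary genes lie at short lengths with few tags.

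In the transcript lists of the split lysates, many Kcn mRNAs had both FMRP and Hu tags. Of the 65 members in the transcript lists, 39 had both FMRP and Hu tags, 17 had FMRP tags only, 3 had Hu tags only and 6 had neither in the Illumina libraries. The 3 with Hu tags only had 2 or 3 of them, and Kcnj10 among them had 4 and 5 Illumina FMRP tags in the gene table. Kcnd1 and Kcng1, among those with FMRP tags only, had 1 tag each, and such counts cannot tell absence from low depth. The same split over all genes was not counted. In all there were 425 FMRP and 324 Hu tags on members. The other 29 members, Kcnh3 and Kcnmb4 among them, have no entry in these lists and no Hu value here. In edgeR's quasi-likelihood test 6 members had enough tags to be tested. Of these, 3 were called higher in FMRP, beside 33.6% of all 1015 genes tested, and 1 was called higher in Hu, beside 27.3%. Members could enter the test through the group in which they are high, so these counts say nothing of Kcn mRNAs as a set.

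Kcnq3 had 11 and 17 FMRP tags on days 11 and 13, or 411 and 386 CPM, and 0 and 0 Hu tags. The groups did not overlap. Against a limit of 3 counts over both Hu libraries FMRP was 9.97-fold higher (edgeR adjusted p = 0.00223). The exact lower 95% bound of the pooled ratio, from counting error only, was 7.59. Within the gene in the genome, introns included and on both strands, Kcnq3 had 9 and 18 FMRP and 2 and 3 Hu tags, a log2 difference of 2.56 (edgeR adjusted p = 0.0150). Kcnh5 had 9 and 16 FMRP tags and 0 and 2 Hu tags, a log2 difference of 3.85 (SE 0.75, edgeR adjusted p = 0.00290). Its 2 Hu tags give a ratio of library-scaled totals of 13.4 with an exact 95% counting interval from 3.33 to 116. In the genome lists it had 6 and 15 FMRP and 3 and 4 Hu tags, a ratio of 4.24 (1.74 to 11.8). Without the day 11 Hu library the adjusted p of Kcnh5 was 0.0840 in edgeR.

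Kcnma1 had 16 and 44 FMRP tags and 0 and 14 Hu tags. All FMRP values, 597 and 998 CPM, were above the Hu values of 0 and 281. The log2 difference was 2.58 (SE 0.978, edgeR adjusted p = 0.0435). Without the day 11 Hu library it was 1.60 (edgeR adjusted p = 0.259). Counted over the whole gene in the genome, introns included and on both strands, Kcnma1 had 24 and 51 FMRP and 28 and 45 Hu tags, a log2 difference of 0.18 (edgeR adjusted p = 0.814).

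Kcnk3, which encodes an acid-sensitive leak channel, was the member called higher in Hu. It had 1 and 1 FMRP tags and 13 and 17 Hu tags, or 37.3 and 22.7 against 502 and 341 CPM. The log2 difference was -3.41 (SE 0.727, edgeR adjusted p = 0.00446). Without the filter on low counts Kcnh5, Kcnma1 and Kcnk3 were no longer called (log2 differences 3.70, 2.41 and -3.60, edgeR adjusted p = 0.0538, 0.105 and 0.0593). For Kcnk3, leaving out any 1 of the 4 libraries ended the call (log2 differences -3.41 to -2.70, edgeR adjusted p = 0.0534 to 0.229). Of its 30 Hu tags, 25 had their middle within 100 nucleotides of the transcript, positions 2353 to 2452. In the genome lists only 5 and 6 Hu tags lay within the gene, chr5:30890543-30927643 (mm9), and the gene then had too few tags to be tested.

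The other tested members did not pass. Kcna1 had 4 and 18 FMRP and 13 and 57 Hu tags, so Hu was above FMRP within each lysate, at 502 against 149 CPM on day 11 and 1143 against 408 on day 13. Its log2 difference was -1.21 (SE 0.778, edgeR adjusted p = 0.192), and -0.06, -0.26 and -1.86 without the day 13 Hu, day 11 FMRP and day 11 Hu library in turn. Kcnd2 had 9 and 15 FMRP and 9 and 6 Hu tags, with a log2 difference of 0.95 (SE 0.661, edgeR adjusted p = 0.222), and -0.27 (edgeR adjusted p = 0.753) when tags were counted over the whole gene in the genome.

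Members with too few tags for the test are given by the ratio of FMRP to Hu CPM, pooled over both libraries, with an exact 95% interval that covers counting error only. Kcnh7 had 4 and 25 FMRP tags and no Hu tag, 10.3-fold above a limit of 3 Hu counts, with an exact lower 95% bound of 7.88. Against the same limit FMRP was 5.34-fold higher for Kcnt1 with 15 FMRP tags and 4.99-fold for Kcnq5 with 14, each with 0 Hu tags. Their exact lower 95% bounds were 3.83 and 3.54. The genome lists, which include introns, differ here. In them Kcnh7 had 9 and 27 FMRP and 15 and 14 Hu tags, a ratio of 1.75 (1.05 to 2.97). For Kcnq5 the direction turned, with 11 and 12 FMRP and 30 and 27 Hu tags and a ratio of 0.570 (0.335 to 0.940). Kcnt1 had 3 and 10 FMRP and 0 and 0 Hu tags.

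Kcnh1 had 4 and 18 FMRP against 2 and 5 Hu tags, a ratio of 3.36 (1.38 to 9.31). Kcna2 had a ratio of 2.14 and Kcnab2 of 1.16, with intervals that included 1. Toward Hu, Kcnc2, a pore of fast-spiking interneurons, had 1 and 8 FMRP against 3 and 27 Hu tags, a ratio of 0.321 (0.134 to 0.693). Kcnj2 had 0 and 6 against 15 and 9, a ratio of 0.267 (0.0893 to 0.671). Of its 24 Hu tags, 21 lay within 100 nucleotides, and the genome lists place only 1 and 2 Hu tags in the gene. Kcna4, with 3 FMRP and 8 Hu tags, and Kcnv1, with 2 and 8, had intervals that included 1.

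By subfamily, the Kcnh mRNAs had 77 FMRP and 9 Hu tags in the 2 lysates, a ratio of 9.14 (4.57 to 20.7). In the genome lists they had 86 and 52, a ratio of 2.34 (1.64 to 3.36). The Kcnt mRNAs had 17 and 4, a ratio of 4.54 (1.48 to 18.5), with 15 and 0 tags on Kcnt1 and 2 and 4 on Kcnt2, and 1.41 (0.678 to 2.94) in the genome lists. The Kcnd mRNAs had 32 and 25, a ratio of 1.37 (0.785 to 2.41). The ratio was below 1 for Kcna, 0.510 (0.344 to 0.745), Kcnc, 0.544 (0.329 to 0.881), and Kcnk, 0.462 (0.240 to 0.851). Kcnj had 0.754 (0.428 to 1.31). The genome lists gave 0.707 (0.471 to 1.05) for Kcna, 0.570 (0.343 to 0.920) for Kcnc and 0.895 (0.476 to 1.64) for Kcnk. For Kcnj the direction turned in the genome lists, to 1.46 (0.848 to 2.52), though both intervals included 1. The transcript and genome sums of a subfamily do not always cover the same members. Kcnj13 and Kcnh8, for example, had genome tags but no entry in the transcript lists. Leaving out the member with the most Hu tags tends to raise such a ratio, so a rise tests nothing. In the transcript lists it was 1.19 (0.596 to 2.38) for Kcna without Kcna1 and 2.14 (0.807 to 6.26) for Kcnk without Kcnk3. Kcnj without Kcnj2 had 1.92 (0.842 to 4.66), and Kcnc without Kcnc2 had 0.836 (0.425 to 1.62). All these intervals included 1.

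**Figure D4:**
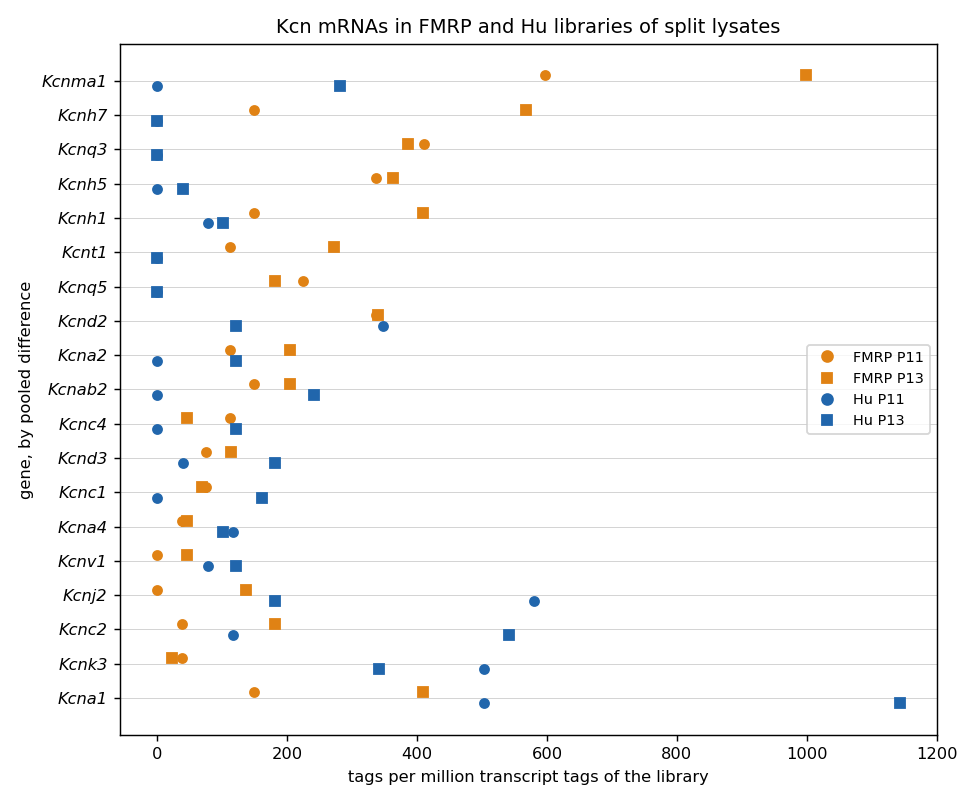
CPM of transcript tags in the FMRP and Hu libraries of the day 11 and day 13 lysates, for 19 Kcn mRNAs of the 22 with 10 or more tags over the 4 libraries, ordered by the pooled difference. Kcnh7, Kcnq3, Kcnt1 and Kcnq5 have both Hu points at 0, and Kcna1 at the bottom has the highest Hu value, 1143.

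The ratio also differed by coding length. It was 1.22 (0.387 to 3.96) for members under 1000 coding nucleotides, 0.693 (0.560 to 0.857) for 1000 to 1999, 2.26 (1.69 to 3.04) for 2000 to 2999 and 7.06 (4.28 to 12.3) for 3000 or more. Over all genes it was 0.281, 0.564, 1.27 and 3.16 in the same classes. Without Kcna1, Kcnk3 and Kcnj2 the class of 1000 to 1999 had a ratio of 1.21 (0.923 to 1.59). Those members have many Hu tags, so this rise follows from the choice. Without Kcnma1 the class of 3000 or more had 15.8 (5.84 to 59.7). Kcnma1 holds 14 of the 18 Hu tags of that class, so this rise too follows from the choice and tests nothing.

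FMRP tags on Kcn mRNAs lay mostly in coding sequence. By library 89.7%, 83.3% and 85.7% were coding in the monoclonal libraries of days 14, 15 and 25, 74.3% and 76.1% in the polyclonal 454 libraries and 70.3% and 71.5% in the Illumina libraries. The mean was 78.7% ± 7.51 (SD, n = 7), against 47.4% if tags were spread evenly over each transcript, and every library was above its even spread. Over all genes the means were 80.6% and 55.9%. The monoclonal libraries were all above the polyclonal 454 libraries (two-sided exact permutation p = 0.200, the smallest that 3 against 2 allows), and the same order held for all genes. Members whose coding length equals the transcript length were left out of these shares.

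The coding share differed among members. All 42 Kcnh3 tags were coding, on a transcript with 61.1% coding sequence, as were 68 of 71 Kcnma1 tags on a transcript with 56.5%. Kcna1 had 10 of 28 (35.7%, Wilson 95% interval 20.7% to 54.2%) on a transcript with 16.6% coding sequence, and Kcnc1 9 of 20 on one with 13.6%. Kcnab2 had 4 of 17, 23.5% against 30.1%, and none of the 5 Kcnip3 tags was coding. For Kcnab2 the interval included the share of length, as it did for Kcnip3 (0% to 43.4% against 27.1%).

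Hu tags had later median positions on the transcripts than FMRP tags, though the stretches they covered overlapped. Over all members the median position was 27.5% to 45.1% of the transcript in the 7 FMRP libraries and 59.4% and 61.4% in the 2 Hu libraries. These medians did not overlap, but each library weights genes by its own tags. Between the lower and upper quartiles, FMRP ran from 17.9% to 70.7% and Hu from 52.8% to 66.4% on day 11. On day 13 these ranges were 22.7% to 61.2% and 48.4% to 77.4%. With at least 5 Illumina FMRP and 5 Hu tags, 12 members could be compared, and the median Hu position was further towards the 3' end in 10, the exceptions being Kcnd3 and Kcnj2. Positions were not counted over all genes, so neither this count nor the library medians can be called particular to Kcn mRNAs. On Kcnma1 the median was nucleotide 2506 for Illumina FMRP tags and 4302 for Hu tags, which ran from 3453 to 5037. On Kcnd2 the medians were 1035 and 3014, on Kcnh1 2364 and 6889, and on Kcnc2 1663 and 4126.

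FMRP tags were spread along most transcripts. The fullest 100 nucleotides held 10.0% of the Illumina FMRP tags on Kcnma1 and 13.8% on Kcnh7, but 9 of 25 tags on Kcnh5. In the 454 libraries 10 of 12 Kcna2 tags lay within 100 nucleotides, from 689 to 788, whereas the first Illumina FMRP tag on Kcna2 began at 1399. Also in the 454 libraries, 10 of 23 Kcnh1 tags lay from 2535 to 2634. Of the 12 Hu tags on Kcnab2, 11 lay within 100 nucleotides near the transcript's end.

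**Figure D5:**
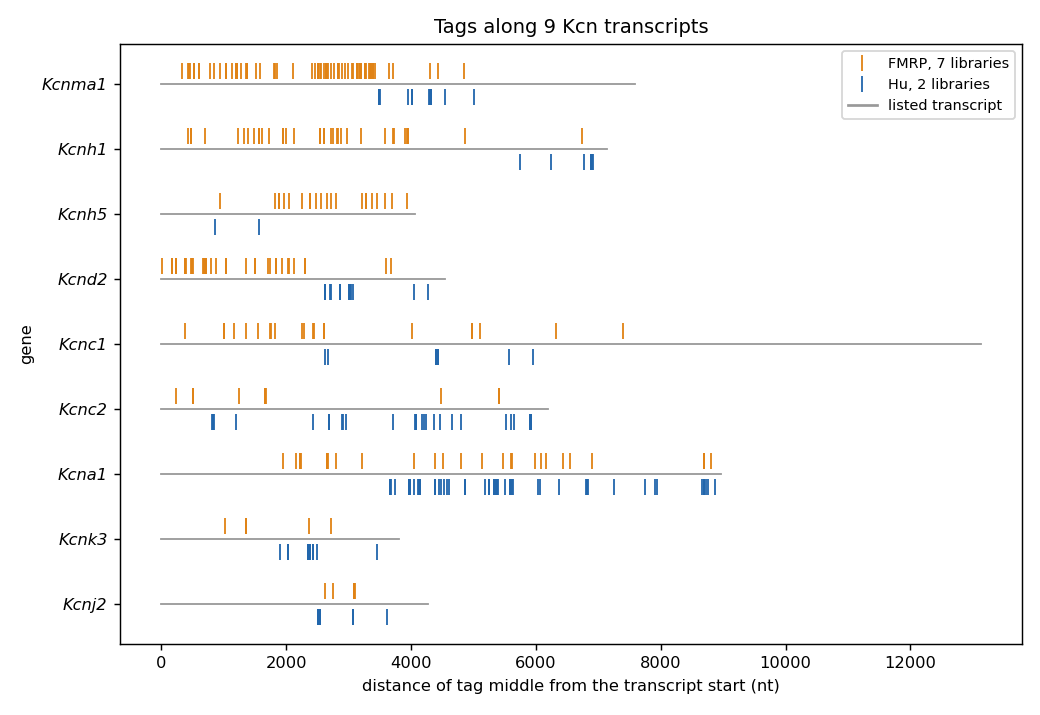
Distance of each tag's middle from the transcript start, in nucleotides, on 9 Kcn transcripts, with FMRP tags of 7 libraries above and Hu tags of 2 libraries below the line of the listed transcript. On Kcnma1, Kcnh1 and Kcnd2 the Hu tags lie towards the 3' end of most FMRP tags. On Kcnk3 and Kcnj2, 25 of 30 and 21 of 24 Hu tags lie within 100 nucleotides and the others outside.

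The genes listed as partners of potassium channels, such as anchoring proteins, auxiliary subunits outside the Kcn symbols and the related Hcn pacemaker channels, were compared in the same test. Of 31 listed genes 9 were tested, 1 was called higher in FMRP and 2 were called lower, beside 33.6% and 27.3% of all genes tested, with a median log2 difference of 0.25 beside -0.16 over all genes tested. These genes too could enter the test through the group in which they are high. Hcn2 had 10 and 14 FMRP tags and no Hu tag. Against a limit of 3 counts over both Hu libraries, Hcn2 was 8.55-fold higher in FMRP (edgeR adjusted p = 0.00223). The exact lower bound of its pooled ratio, from counting error only, was 6.43. Vapa, a membrane protein of the endoplasmic reticulum, had 0 and 3 FMRP and 12 and 19 Hu tags, a log2 difference of -2.92 (SE 0.786, edgeR adjusted p = 0.0120). Adam23, part of the Lgi1 complex near Kcna channels, had 1 and 8 against 11 and 45, a log2 difference of -2.16 (SE 0.852, edgeR adjusted p = 0.04999). Dlg4, the postsynaptic scaffold, had 47 and 82 against 53 and 83 and did not pass (edgeR adjusted p = 0.699).

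By the authors' deposited table, 13 of the 94 members had a false discovery rate under 0.05 and 11 under 0.01, or 13.8% and 11.7%, beside 3.73% and 2.84% of all 29496 genes. Of the 58 members with a tag 22.4% were under 0.05 in the authors' deposited table, beside 12.3% of the 8976 genes with a tag. In the authors' deposited table Kcnma1 had a rate of 2.47e-05, Kcnh1 6.04e-05 and Kcnd2 0.000308. Kcna1, at 0.0514 in the authors' deposited table, was just outside. The sources used here do not describe the test behind these values, and the rate exceeds 1 on many lines, so they are given as the authors' values only.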

How the data were processed

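Counts of tags per gene for the 7 FMRP libraries, over whole transcripts and over coding sequence, came from the authors' deposited gene table, together with lengths, an array intensity, a chi-square score with its p-value, and mm9 bounds. The 9 libraries' tag lists, on RefSeq transcripts and on the genome, were also deposited. Novoalign and mm9 are named in the submitters' processing notes. Lines of one symbol were summed. Transcript tags were counted per gene for FMRP against Hu, after matching 11622 accessions, of which 207 stayed unnamed. Genome tags were counted within gene bounds on both strands. edgeR 4.0.16 (R 4.3.3; TMM, filterByExpr with a minimum count of 10, quasi-likelihood test, Benjamini-Hochberg threshold 0.05) was fitted on all genes and checked on simulated data, with DESeq2 1.42.0 as an alternative. Each comparison used its own groups. Tags were counted as deposited, and intervals cover counting error only. Lysates were split between FMRP and Hu, so days 11 and 13 pair the libraries by design (correlation of day differences 0.16 over 1015 genes). Members, lists and the rule for named genes (all tested members, the 20 highest FMRP means, the 10 with most Hu tags, the top member of each subfamily) were chosen with earlier results of these data known. Some members are not reported here.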

Additional observations from a re-analysis of the deposited data

How the results depend on the processing

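The 3 Kcn calls higher in FMRP and 1 higher in Hu were again 3 and 1 with DESeq2 size factors, library totals, DESeq2 and the lysate as a replicate block, and the same genes were called. These scalings moved the median log2 difference of all genes from -0.16 to 0.21 with DESeq2 size factors and -0.38 with library totals. With 1 tag per start position 2 and 1 members were called. With genome tags 1 was called higher in FMRP (Kcnq3) and 1 in Hu (Kcnip4, named after its values were seen). Without the filter 4 were higher in FMRP and 0 in Hu. Leaving out 1 library gave 1 to 6 members higher in FMRP and 0 to 0 higher in Hu. Without the day 11 FMRP library 6 were called, and without the day 13 FMRP library 1. The causes were not tested. Kcnd2 turned from 0.95 to -0.27 (log2) with genome tags. No member was called in the comparisons among FMRP libraries under any alternative run. The Kcn share moved by less than 1 SD under its alternatives, of which leaving out the day 11 Illumina library (0.878%) was chosen after seeing the data, as were the pooled ratios, from transcript or genome lists. The coding share was 70.9% in the Illumina libraries alone. Between 454 and Illumina libraries 28 genes were called by edgeR and 0 by DESeq2. Depth limits most members: 88 of 94 had too few tags to be tested against Hu.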
